A study of Mus musculus with 19 samples.

Results

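The 10 genes below belong to protein folding in the endoplasmic reticulum (ER) and are described across fatty acid treatments of mouse fat cells: chaperones and their helpers, the transcription factor Xbp1, and genes that XBP1 is known to switch on. They were chosen by name, as the array probe sets whose annotated symbol was Hspa5, Hsp90b1, Sdf2l1, Dnajb9, Pdia4, Calr, Xbp1, Sec61b, Herpud1 or Creld2, with the brightest probe set taken per gene. Of these 10 genes 9 were measured, out of 18820 genes on the array. The probe set of Pdia4, a protein disulfide isomerase, is annotated with a microRNA gene as well, and no value is given for it.

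RNA came from 19 samples of 3T3-L1 cells, a clonal mouse fibroblast line, differentiated into adipocytes with dexamethasone, IBMX and insulin and kept free of serum from day 7. From day 8 they received 1 acid at 250 µM for 48 h: palmitic acid (PA, 16 carbons and no double bond, n = 4), palmitoleic acid (PMA, titled PMO in the labels, 16 carbons and 1 double bond, n = 4), stearic acid (SA, 18 carbons and no double bond, n = 4) or oleic acid (OA, 18 carbons and 1 double bond, n = 3). Control cultures (n = 4) received ethanol, the solvent, and all 5 groups carried 2% bovine serum albumin. The OA group is smaller because of trouble in amplifying the cRNA of a replicate, per the series' design text. The labels call the samples biological replicates without naming separate passages or days, so p-values measure the spread between these samples only.

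Proteins that enter the secretory pathway are threaded into the ER through the SEC61 channel and folded there by chaperones. When unfolded protein builds up, the sensors IRE1, PERK and ATF6 start the unfolded protein response: IRE1 splices Xbp1 mRNA so that it encodes an active transcription factor, and XBP1 and ATF6 then raise chaperones and the machinery that removes misfolded protein. Adipocytes secrete large amounts of adiponectin and other hormones, and saturated fatty acids are known to provoke this response in many cultured cells. The comparisons ask how each acid altered these mRNAs, and how far saturation and chain length of the acid mattered. Splicing of Xbp1 was not analysed here.

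The stretches of promoter below hold either of the longer motifs described next, or, for Sdf2l1, belong to a gene whose level changed. They are RefSeq sequences on GRCm38.p6, read 5′ to 3′ along the gene's strand. Capitals mark the ER stress element (ERSE: CCAAT, 9 bases of any kind, then CCACG, on either strand) in the first 4, the related ERSE-II (ATTGG, 1 base of any kind, then CCACG) in Herpud1, and in Sdf2l1 the shorter core CCACG, which also forms the end of both longer motifs. On the opposite strand the core reads CGTGG. The promoter of Sec61b, whose level changed too, held none of these motifs on either strand and is not shown.
Hspa5 (chr2:34771995-34772073, + strand): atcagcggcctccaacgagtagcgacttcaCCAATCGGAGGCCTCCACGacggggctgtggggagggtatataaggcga
Hsp90b1 (chr10:86705503-86705686, - strand): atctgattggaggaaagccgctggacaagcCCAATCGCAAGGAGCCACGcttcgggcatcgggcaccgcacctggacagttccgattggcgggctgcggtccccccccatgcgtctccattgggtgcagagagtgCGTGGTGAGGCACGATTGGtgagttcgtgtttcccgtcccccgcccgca
Calr (chr8:84847045-84847123, - strand): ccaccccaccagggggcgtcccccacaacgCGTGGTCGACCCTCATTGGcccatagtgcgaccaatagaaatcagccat
Creld2 (chr15:88819490-88819568, + strand): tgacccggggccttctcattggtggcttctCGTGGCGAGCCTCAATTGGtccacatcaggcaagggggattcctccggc
Herpud1 (chr8:94386347-94386417, + strand): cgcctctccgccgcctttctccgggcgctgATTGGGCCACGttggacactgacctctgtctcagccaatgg
Sdf2l1 (chr16:17132384-17132633, - strand): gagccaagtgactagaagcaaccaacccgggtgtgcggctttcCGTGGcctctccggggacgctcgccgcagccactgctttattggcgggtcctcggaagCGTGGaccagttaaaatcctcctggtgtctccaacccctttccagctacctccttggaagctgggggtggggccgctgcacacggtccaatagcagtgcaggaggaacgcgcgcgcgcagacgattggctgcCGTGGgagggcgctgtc

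In the 250 bases before the gene start, 4 of the 10 genes held an ERSE on either strand, against 0.113% of 32851 annotated mouse promoters of the same length. Herpud1 held the ERSE-II, found in 0.0304% of promoters. The core CCACG stood in 7 of the 10, against 28.3% of promoters, and the element TGACGTGG in none of them, against 0.563%. These genes are known as targets of the response, so the share is a description of the group and not a result of the experiment. A match of letters says nothing of binding in these cells.

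Array medians lay between 5.23 and 5.43 on the log2 scale of the deposited values, which ran from 1.97 to 13.3. PA replicate 2 had the highest median and the smallest interquartile range (3.39), and it received the lowest weight, 0.292, when arrays were weighted by their residual spread. No batch is given in the labels. Adipocyte markers were high throughout, with Adipoq at 12.24 and Fabp4 at 12.36 on average. Most of 7 preadipocyte and fibroblast markers were high too, with Dlk1 at 11.53, Col1a1 at 11.27 and Col3a1 at 10.73. Thy1 averaged 9.56, Pdgfra 9.54 and Gata2 5.69, and Cd34 was at 4.22. Of 6 macrophage markers 5 averaged 3.54 (Adgre1) to 4.71 (Csf1r), and 4 endothelial markers 4.24 (Kdr) to 4.95 (Cdh5), all below every array median, while the macrophage marker Cd68 was above them at 6.32. Of the markers, Col1a1, a fibroblast collagen, was higher with PMA than in control (log2 difference ± SE 0.26 ± 0.05, adjusted p = 0.0463), and Cd68 lower with SA than with PMA (-0.58 ± 0.10, adjusted p = 0.00808). The part of either in the results of those comparisons was not tested.

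Across all 5 groups, the group means of any of the 9 genes differed by at most 0.43 on the log2 scale, for Sec61b. In the fit over all genes (limma, Benjamini-Hochberg adjustment over 18820 genes, threshold 0.05), 2 of the 9 genes passed in any of 13 contrasts: Sdf2l1 and Sec61b. Below, differences are log2 values ± SE with the named first group minus the second. Fewer cells of a type and less RNA per cell cannot be told apart in such bulk samples.

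**Figure D1:**
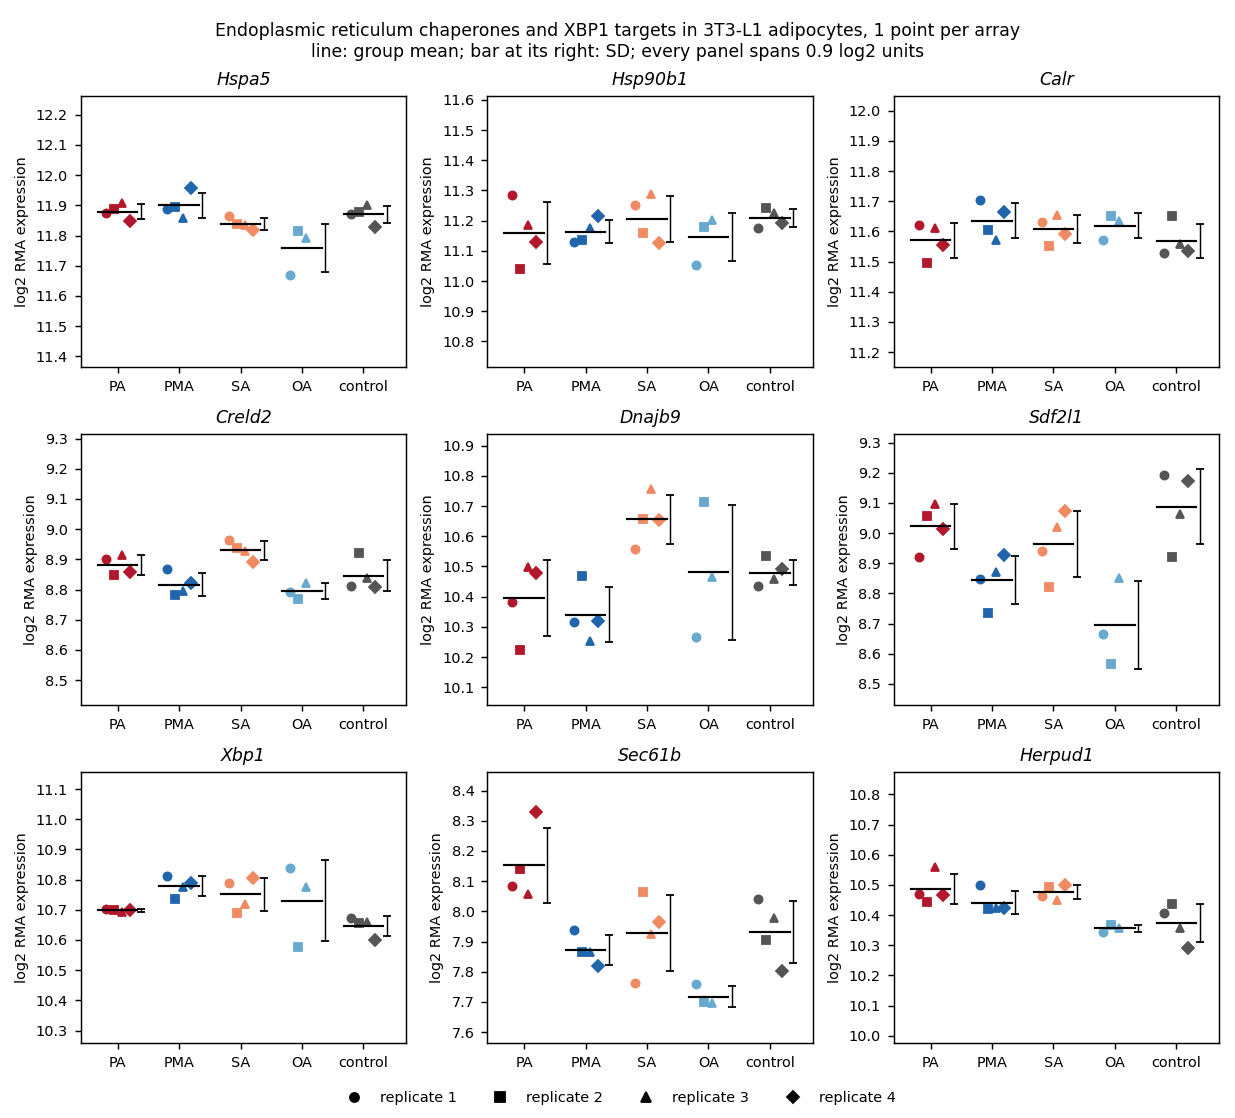
Log2 RMA expression (y axis) of the 9 measured genes in every array, by group (x axis: PA, PMA, SA, OA, control), with marker shape for the replicate number, a line for the group mean and a bar for the SD. Sdf2l1 and Sec61b were lowest in OA cultures, at means of 8.70 and 7.72, while Calr and Hsp90b1 overlapped in all groups.

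None of the lumenal chaperones passed the test in any contrast. Hspa5 encodes BiP, the ER's Hsp70 chaperone and the textbook marker of the unfolded protein response. It measured 11.88, 11.89, 11.91 and 11.85 in PA cultures and 11.89, 11.89, 11.86 and 11.96 in PMA cultures. It measured 11.86, 11.84, 11.84 and 11.82 in SA cultures and 11.67, 11.82 and 11.79 in OA cultures, against 11.87, 11.88, 11.90 and 11.83 in control cultures. The 3 OA arrays all lay below the lowest control array, and the groups of the other acids overlapped with control. The difference was 0.01 ± 0.05 for PA, with a 95% interval from -0.08 to 0.10. For OA it was -0.11 ± 0.05 (adjusted p = 0.363).

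Hsp90b1 encodes GRP94, the ER's Hsp90 chaperone, and Calr encodes calreticulin, which folds glycoproteins and stores calcium. Hsp90b1 lay between 11.04 and 11.29 in PA cultures, 11.13 and 11.21 in PMA cultures, 11.13 and 11.29 in SA cultures and 11.05 and 11.20 in OA cultures, against 11.17 to 11.24 in control cultures. Calr lay between 11.50 and 11.62 in PA cultures, 11.57 and 11.70 in PMA cultures, 11.55 and 11.65 in SA cultures and 11.57 and 11.65 in OA cultures, against 11.53 to 11.65 in control cultures. All groups overlapped for both genes. Differences from control ran from -0.06 (OA) to 0.00 (SA) for Hsp90b1 and from 0.00 (PA) to 0.07 (PMA) for Calr, none of which passed (smallest adjusted p = 0.494). Without PA replicates 2 and 4, the PA difference of Hsp90b1 changed sign, to 0.03.

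Creld2, a stress-inducible resident of the ER lumen, measured 8.90, 8.85, 8.91 and 8.86 in PA cultures and 8.87, 8.78, 8.79 and 8.82 in PMA cultures. It measured 8.96, 8.94, 8.93 and 8.89 in SA cultures and 8.79, 8.77 and 8.82 in OA cultures, against 8.81, 8.92, 8.84 and 8.81 in control cultures. The SA arrays were all above every PMA and OA array, while each acid overlapped with control. The difference between SA and OA was 0.14 ± 0.05, with an unadjusted p of 0.00995 and an adjusted p of 0.9997, and that between SA and control 0.08 ± 0.04 (adjusted p = 0.645).

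Among the helpers of BiP, Sdf2l1 fell in OA cultures. SDF2L1 sits in a complex with BiP and its J-domain partner ERdj3 and keeps folding clients soluble. It measured 8.92, 9.06, 9.10 and 9.01 in PA cultures and 8.85, 8.74, 8.87 and 8.93 in PMA cultures. It measured 8.94, 8.82, 9.02 and 9.07 in SA cultures and 8.67, 8.57 and 8.85 in OA cultures, against 9.19, 8.92, 9.06 and 9.17 in control cultures. The highest OA array was below the lowest control array, and below the lowest PA array. The other 3 acids overlapped with control, PMA by 1 array at 8.93.

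The difference of Sdf2l1 between OA and control was -0.39 ± 0.08 (0.762-fold, adjusted p = 0.0193, lower in 3 of 3 OA arrays than the control mean), where 0.861% of all genes passed and 1 of the 9 genes did. The 95% interval ran from -0.56 to -0.23. The group means were 8.70 ± 0.15 in OA cultures (SD, n = 3) and 9.09 ± 0.12 in control cultures (SD, n = 4). With PMA the difference was -0.24 ± 0.07 (adjusted p = 0.129), with SA -0.12 ± 0.07 (adjusted p = 0.704) and with PA -0.07 ± 0.07 (adjusted p = 0.666), none past the threshold. These 4 differences share the control arrays.

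The call of Sdf2l1 with OA ended without control replicate 1 (adjusted p = 0.0746), control replicate 4 (0.0711), OA replicate 1 (0.0801) or OA replicate 2 (0.115). It also ended with only the arrays of OA and control in the fit (0.0565), and over all 29 alternatives the adjusted p ran from 0.00358 to 0.115. The mean level of 7 preadipocyte and fibroblast markers was 8.92 to 9.02 in OA arrays, against 8.84 to 8.91 in control arrays, with 0 of 7 past the threshold. That of 9 adipocyte markers was 11.78 to 11.83 in OA arrays, against 11.72 to 11.76 in control arrays. Of these markers 0 of 9 were past it, the smallest adjusted p being 0.0502, just short of it. Their part in the Sdf2l1 result was not tested.

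Dnajb9 encodes ERdj4, a J-domain cochaperone of BiP that also holds IRE1 inactive, and is a classic XBP1 target. It measured 10.38, 10.22, 10.50 and 10.48 in PA cultures and 10.32, 10.47, 10.25 and 10.32 in PMA cultures. It measured 10.56, 10.66, 10.76 and 10.65 in SA cultures and 10.27, 10.71 and 10.46 in OA cultures, against 10.43, 10.53, 10.46 and 10.49 in control cultures. SA arrays were above all PA, PMA and control arrays, and the 3 OA arrays overlapped with every other group. The difference was 0.32 ± 0.08 for SA minus PMA (adjusted p = 0.129), -0.26 ± 0.08 for PA minus SA (adjusted p = 0.169) and, for SA minus control, 0.18 ± 0.08 (adjusted p = 0.523). None passed, although the SA to PMA difference did with a trended, robust spread (adjusted p = 0.0421) and with array weights (0.0181), out of a range from 0.0181 to 0.936 over 29 alternatives.

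Xbp1, the transcription factor itself, did not pass the test with any acid. It measured 10.70, 10.70, 10.69 and 10.70 in PA cultures and 10.81, 10.73, 10.77 and 10.79 in PMA cultures. It measured 10.79, 10.69, 10.72 and 10.80 in SA cultures and 10.84, 10.58 and 10.78 in OA cultures, against 10.67, 10.66, 10.66 and 10.60 in control cultures. All PA, PMA and SA arrays were above the highest control array, and OA replicate 2 was below the lowest. The difference was 0.13 ± 0.05 for PMA (adjusted p = 0.232), 0.10 ± 0.05 for SA, 0.08 ± 0.06 for OA and 0.05 ± 0.05 for PA, with adjusted p between 0.619 and 0.643 for the last 3. With PMA the median difference over all genes was 0.06.

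Herpud1, a membrane protein that organises the ubiquitin ligase complex of ER-associated degradation, measured 10.47, 10.44, 10.56 and 10.47 in PA cultures and 10.50, 10.42, 10.42 and 10.42 in PMA cultures. It measured 10.46, 10.49, 10.45 and 10.50 in SA cultures and 10.34, 10.37 and 10.36 in OA cultures, against 10.41, 10.44, 10.36 and 10.29 in control cultures. PA and SA arrays were all above the highest control array and above every OA array. The differences were 0.11 ± 0.05 for PA (adjusted p = 0.267), 0.10 ± 0.05 for SA (adjusted p = 0.513), 0.07 ± 0.05 for PMA and -0.02 ± 0.05 for OA, and none passed.

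**Figure D2:**
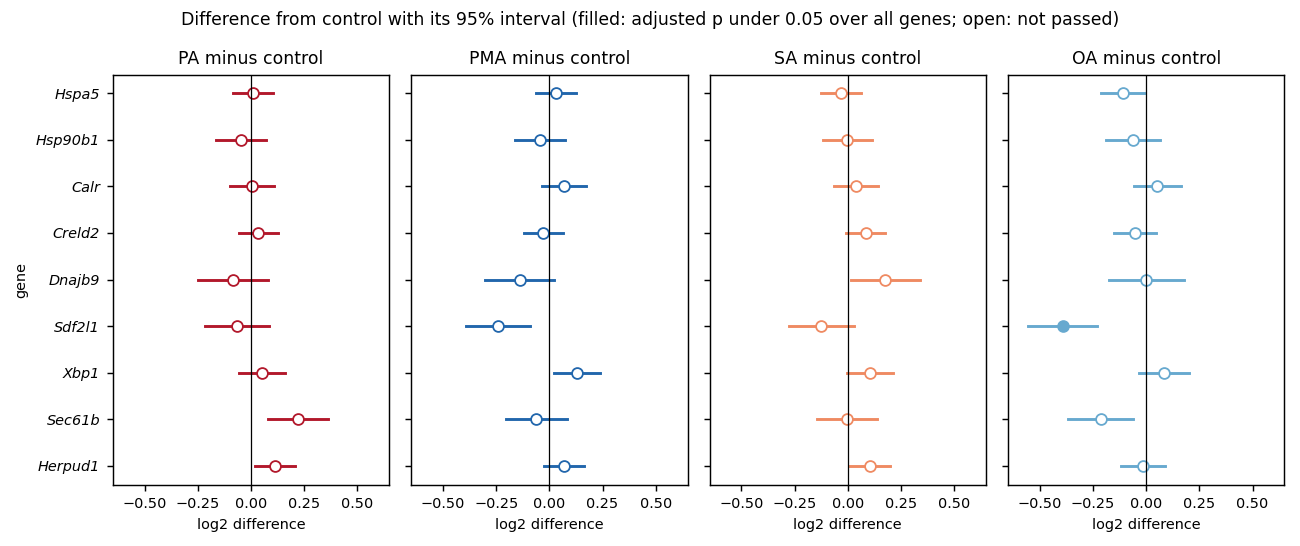
Log2 difference of each acid minus control (x axis) for the 9 genes (y axis), with 95% intervals from the fit. Filled points passed an adjusted p of 0.05 over all genes: of the values drawn, this holds for Sdf2l1 with OA, at -0.39, and the highest value drawn is Sec61b with PA, at 0.22.

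Counted over the 9 genes, 0 passed with PA, 0 with PMA and 0 with SA in limma's test, against 0%, 0.266% and 0.165% of all genes. At an unadjusted p under 0.05 there were 2 with PA (Sec61b and Herpud1), 2 with PMA (Sdf2l1 and Xbp1) and 2 with SA (Dnajb9 and Herpud1), where 15.4%, 16% and 8.53% of all genes reached it. OA had 3 (Hspa5, Sdf2l1 and Sec61b), against 11.6% of all genes. The median of the 9 differences was 0.01 with PA, -0.03 with PMA, 0.04 with SA and -0.05 with OA, beside 0.03, 0.06, 0.02 and 0.02 over all genes. The mean of the 4 acids against control called 0 of 9 (0.197% of all genes), with 2 at an unadjusted p under 0.05, Sdf2l1 and Xbp1, against 12.7%.

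Some groups did not overlap even where no test passed. With PA 3 of the 9 genes were higher in every array than in any control array (Xbp1, Sec61b and Herpud1, where 3.9% of all genes were), with PMA 1 (Xbp1, 9.29%) and with SA 3 (Dnajb9, Xbp1 and Herpud1, 4.88%). For Sec61b with PA this held for its brightest probe set only. With OA 3 were lower in every array than in any control array (Hspa5, Sdf2l1 and Sec61b), where 4.63% of all genes were. The OA group had the lowest mean of the 5 groups for 6 of the 9 genes, against 24.9% of all genes, and the highest for 0, against 17.2%.

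Sec61b was the gene that differed most between acids. It encodes the beta subunit of the SEC61 channel, through which new proteins pass into the ER. It measured 8.08, 8.14, 8.06 and 8.33 in PA cultures and 7.94, 7.87, 7.86 and 7.82 in PMA cultures. It measured 7.76, 8.06, 7.93 and 7.97 in SA cultures and 7.76, 7.70 and 7.70 in OA cultures, against 8.04, 7.91, 7.98 and 7.80 in control cultures. By this brightest probe set, every PA array was above every PMA, OA and control array. Every OA array was below every PMA, SA and control array. The order of the means was PA, control, SA, PMA and OA, and control, SA and PMA overlapped with each other.

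Sec61b was 0.43 ± 0.07 higher with PA than with OA (1.35-fold, adjusted p = 0.00445), and 1.92% of all genes passed in that comparison. Of the 9 genes 2 passed there, and the second was Sdf2l1, 0.33 ± 0.08 higher with PA (1.25-fold, adjusted p = 0.0356). For both genes every PA array was above every OA array. Between saturated (PA and SA) and monounsaturated (PMA and OA) acids Sec61b differed by 0.25 ± 0.05 (adjusted p = 0.0211), 1 of the 9 to pass, where 0.553% of all genes did. The groups overlapped through SA replicates 1 and 3, at 7.76 and 7.93. Sdf2l1 was at 0.22 ± 0.05 there (adjusted p = 0.0626), and with Creld2 and Herpud1 4 of the 9 had an unadjusted p under 0.05, against 12.6% of all genes. Against control the difference was 0.22 ± 0.07 with PA (adjusted p = 0.225) and -0.21 ± 0.07 with OA (adjusted p = 0.209), and neither passed, although the OA difference did with array weights (adjusted p = 0.035, out of 0.035 to 0.455 over 29 alternatives).

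The PA to OA difference of Sec61b passed whichever single array was left out (largest adjusted p = 0.0458, without OA replicate 3). It did not pass without PA replicates 2 and 4, a pair chosen from an earlier account of these data (0.35, adjusted p = 0.0566). By array weight, replicate 2 was the lowest of the PA arrays (0.292) and replicate 4 the highest (0.948). The PA to OA difference of Sec61b also did not pass with only the arrays of PA and OA in the fit (0.103). Over the 29 alternatives its adjusted p ran from 0.00104 to 0.103. The Sdf2l1 difference between PA and OA ended without PA replicate 2, 3 or 4 and without OA replicate 1 or 2 (adjusted p from 0.0517 to 0.143, and 0.0117 to 0.215 over 29 alternatives), and without PA replicates 2 and 4 together it was 0.31 (adjusted p = 0.2145). The Sec61b difference between saturated and monounsaturated acids ended without PA replicate 4, PMA replicate 4, SA replicate 2, SA replicate 4 or OA replicate 3 (adjusted p from 0.0502 to 0.0892).

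Sec61b has 3 probe sets on the array. Between PA and OA they differed by 0.43 ± 0.08 (probe set 10411454, the brightest), 0.40 ± 0.06 (10504831) and 0.30 ± 0.07 (10426889), with adjusted p of 0.0155, 0.00728 and 0.0583 over all 35556 probe sets. Between saturated and monounsaturated acids they differed by 0.25, 0.24 and 0.20 (adjusted p = 0.0658, 0.0194 and 0.139). With PA against control they parted: 0.22, 0.15 and 0.01. Only by the brightest was every PA array above every control array. By 10504831 the lowest PA array was at 7.83 and the highest control array at 7.87. By 10426889 PA arrays lay between 6.84 and 7.03, against 6.79 to 7.12 in control arrays. With OA against control all 3 were lower, at -0.21, -0.25 and -0.29, none past the threshold (adjusted p = 0.255, 0.0859 and 0.0803). Whether a probe set also reads a near-identical copy of the gene was not examined here.

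Sec61g, the gamma subunit of the same channel and a gene of the translocon list, was low with OA as well. It averaged 10.24 ± 0.10 in PA cultures, 9.92 ± 0.05 in PMA cultures, 9.97 ± 0.11 in SA cultures and 9.83 ± 0.01 in OA cultures, against 10.22 ± 0.10 in control cultures (SD, n = 4, and n = 3 for OA). It fell with OA (-0.39 ± 0.07, adjusted p = 0.00986) and with PMA (-0.30 ± 0.06, adjusted p = 0.0463) against control, and was 0.41 ± 0.07 higher with PA than with OA (adjusted p = 0.00416). Between saturated and monounsaturated acids it differed as well (0.23 ± 0.05, adjusted p = 0.0167). The saturated acids were not alike there: SA, at 9.97, lay nearer to PMA, at 9.92, than to PA, at 10.24. Against control the SA difference was -0.25, not past the threshold. Between PA and PMA it differed by 0.32 ± 0.06 (adjusted p = 0.0149), where Sec61b, at 0.28 ± 0.07, was just short of the threshold (adjusted p = 0.0502) and passed in 8 of 29 alternatives, with adjusted p from 0.0228 to 0.432.

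**Figure D3:**
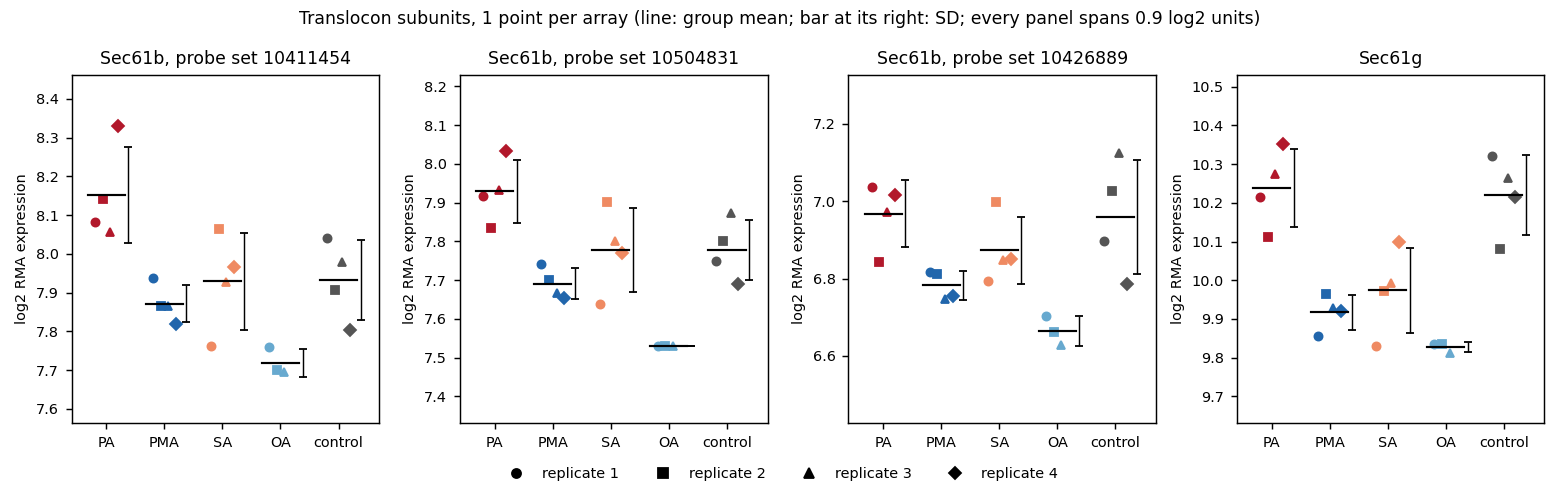
Log2 RMA expression (y axis) of the 3 Sec61b probe sets and of Sec61g in every array, by group (x axis), with the group mean as a line and the SD as a bar. OA arrays are lowest in all 4 panels by mean, at 7.72, 7.53 and 6.66 for Sec61b and 9.83 for Sec61g, and PA arrays of Sec61g lie level with control arrays.

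The acids were compared in 6 pairs at the same dose and time. Of the 6 pairs, PA against OA had calls among the 9 genes, and 5 genes (Hspa5, Creld2, Sdf2l1, Sec61b and Herpud1) were higher in every PA array than in any OA array there, where 6.67% of all genes were. At an unadjusted p under 0.05 there were 4 of the 9 (the same without Creld2), against 21.4% of all genes. PA against PMA, which differ by the double bond at 16 carbons, called 0 of 9 (0.962% of all genes), with Sec61b and Sdf2l1 at an unadjusted p under 0.05, where 17.7% of all genes were. There Sec61b was higher in every PA array than in any PMA array (0.919% of all genes), and Xbp1 lower (7.09%). SA against OA, which differ by the double bond at 18 carbons, called 0 of 9 as well (0.0319% of all genes), with an adjusted p of 0.9997 for each. There the 4 genes Creld2, Sdf2l1, Sec61b and Herpud1 had an unadjusted p under 0.05, against 2.4% of all genes, and differences of 0.14, 0.27, 0.21 and 0.12. Hspa5, Creld2, Sec61b and Herpud1 were higher in every SA array than in any OA array, where 2.13% of all genes were.

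Acids that share the degree of saturation gave no call either. Nor did SA against PMA, which differ in both chain length and double bond. PA against SA called 0 of 9 (0.143% of all genes), with Dnajb9 (-0.26) and Sec61b (0.22) at an unadjusted p under 0.05, against 15.8%. Dnajb9 was lower in every PA array than in any SA array (2.57% of all genes). PMA against OA called 0 of 9 (0.0531%), with Hspa5 (0.14) and Sec61b (0.15) at an unadjusted p under 0.05, against 8.61%. Hspa5, Sec61b and Herpud1, 3 of the 9, were higher in every PMA array than in any OA array (6.98% of all genes). SA against PMA called 0 of 9 (0.244%), with Creld2 (0.11) and Dnajb9 (0.32) so, against 8.82%. Both were higher in every SA array than in any PMA array (0.887% of all genes). The 95% intervals in these pairs reached up to 0.18 on either side of a difference. The interaction, which asks whether the double bond had another effect at 18 than at 16 carbons, called 0 of 9 (0.00531% of all genes), with 0 at an unadjusted p under 0.05 (5.24%), and its 9 values lay between -0.07 and 0.12. Pairs that share a group are not independent, and OA stands in 3 of the 6.

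**Figure D4:**
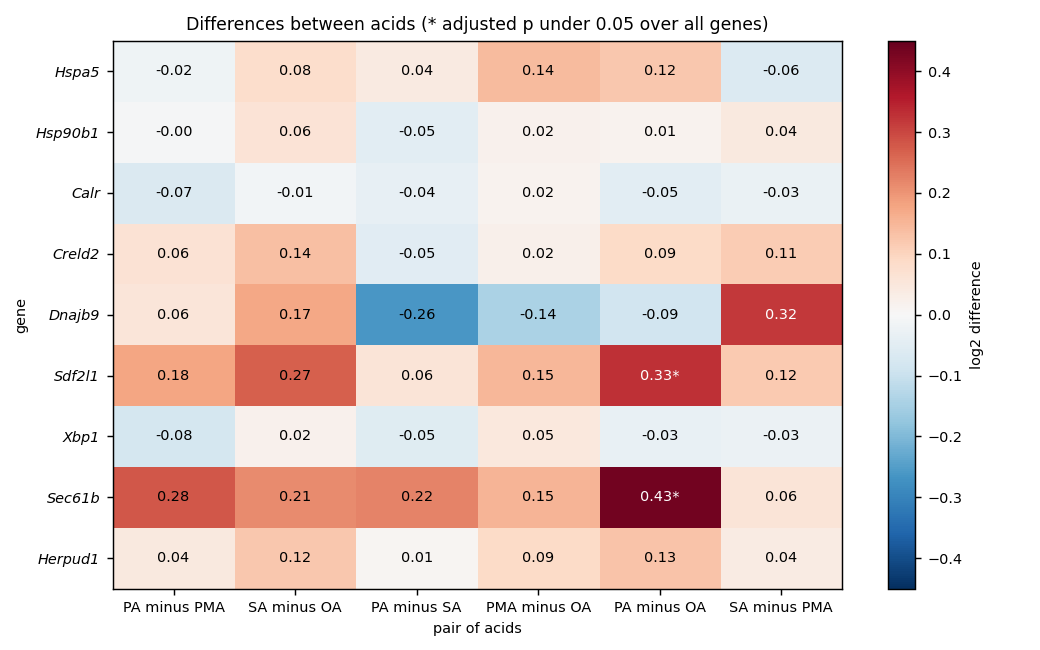
Log2 differences of the 9 genes (y axis) in the 6 pairs of acids (x axis), first acid minus second, with an asterisk where the adjusted p over all genes was under 0.05. The 2 marked cells are Sdf2l1 (0.33) and Sec61b (0.43) in PA minus OA, and the largest unmarked value is Dnajb9 in SA minus PMA, at 0.32.

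The rest of the ER pathway was read from 8 lists with 147 genes, of which 139 were measured. With PA 0 rose and 0 fell, with PMA 0 rose and 1 fell, with SA 1 rose and 0 fell, and with OA 0 rose and 4 fell, which is 0%, 0.719%, 0.719% and 2.88% of them, beside 0%, 0.266%, 0.165% and 0.861% of all genes. The median difference of the 139 was -0.01 with PA, 0.04 with PMA, 0.01 with SA and -0.01 with OA, beside 0.03, 0.06, 0.02 and 0.02 over all genes.

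Of 17 measured ER chaperones and cochaperones beyond the 9 genes, 0 passed with any acid against control. Fkbp11, a prolyl isomerase of secretory cells, was higher with PA than with OA (0.32 ± 0.06, adjusted p = 0.0125) and than with PMA (0.24 ± 0.06, adjusted p = 0.0436). Of 18 disulfide isomerases and oxidases 0 passed against control. Pdia6, which acts with BiP, was at 0.17 between PA and OA (adjusted p = 0.0735). Of 19 genes of ER-associated degradation 0 passed, and Selenos, a membrane anchor of that machinery, was at -0.22 with OA (adjusted p = 0.104).

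Of 22 translocon, signal peptidase and signal recognition genes, 0 rose and 1 fell with OA, namely Sec61g, which also fell with PMA. Of 20 genes of N-glycosylation and the calnexin cycle 0 rose and 1 fell with OA: Ostc, a subunit of the oligosaccharyltransferase, by 0.27 ± 0.05 on the log2 scale (adjusted p = 0.0193), at 10.27 ± 0.08 in OA cultures and 10.55 ± 0.02 in control cultures (SD, n = 3 and n = 4). Uggt2, a sensor of glycoprotein folding, was lower with PA than with PMA (-0.23 ± 0.05, adjusted p = 0.0327). The 22 COPII and Golgi transport genes had 0 calls with any acid against control.

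Of 8 sensors and related proteases, 0 passed against control, the smallest adjusted p being 0.136 with PMA. Creb3l1, a membrane-bound transcription factor of the ATF6 family, was lower with PA than with OA (-0.25 ± 0.06, adjusted p = 0.0461). In the PERK and ATF4 branch, 13 genes measured, 2 fell with OA: Slc7a11, the cystine importer (-0.44 ± 0.09), and Ppp1r15a, which reverses the translational arrest (-0.28 ± 0.06), both with adjusted p = 0.0193. With SA 1 rose, Ddit4, an inhibitor of mTORC1 (0.40 ± 0.07, adjusted p = 0.0267). Trib3, a pseudokinase induced by ATF4, was 0.35 ± 0.07 higher with PA than with OA (adjusted p = 0.0159) and 0.41 ± 0.07 higher with PMA than with OA (adjusted p = 0.026), and lower with SA than with PMA (-0.35 ± 0.07, adjusted p = 0.0145). Slc7a11 was higher with SA than with OA (0.64 ± 0.09, adjusted p = 0.00548) and than with PMA (0.38 ± 0.08, adjusted p = 0.0482), with PA than with OA (0.39 ± 0.09, adjusted p = 0.0263), and with saturated than with monounsaturated acids (0.39 ± 0.06, adjusted p = 0.00179).

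Taken as a whole set, the 9 genes were not tightly correlated. Over the 19 arrays their 36 pairs had a median Pearson correlation of 0.207, with 2 pairs above 0.5, and after each group's mean was taken away the median was 0.046. Creld2 and Herpud1 had the highest correlation over all arrays (r = 0.677, and 0.586 within groups). Within groups the highest were Calr and Creld2 (0.736, and 0.209 over all arrays) and Hsp90b1 and Calr (0.674, and 0.461 over all arrays), and the lowest was Dnajb9 and Xbp1 (-0.734, and -0.390 over all arrays). Sdf2l1 was most like Sec61b (0.488), but not within groups (-0.103). Every pair among Hspa5, Hsp90b1, Calr and Creld2 was above 0 within groups (0.249 to 0.736), a set picked after its values were seen. Sdf2l1 was below 0 within groups with each of these genes (-0.259 to -0.013). All these values are descriptions over arrays that share treatments and normalisation, with no test. Pairs of other genes were not examined beside them.

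The genes outside the group whose levels ran most like the mean of the 9 scaled levels over the 19 arrays were AY358078 (r = 0.815), Pdrg1 (0.742), Cyp7b1 (0.742), Capza2 (0.73), Zpld1 (0.728) and Rexo2 (0.728). AY358078 and Zpld1 were dim, at mean levels of 3.17 and 4.24. Dnajc3, the ER cochaperone p58IPK, ranked at place 7 of 18811 genes (r = 0.722) and Hyou1, a large ER chaperone, at place 10 (r = 0.694). These last 2 are named after their values were seen.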

How the data were processed

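Total RNA of 19 samples was hybridised to Affymetrix Mouse Gene 1.1 ST arrays, from 100 ng each. The deposited values are log2 intensities, 1 per probe set and array, made by the authors with RMA (R 2.15.0, affy 1.34.0), per the submitters' processing notes. RMA corrects background, quantile-normalises the arrays and summarises probes, which reduces a shift common to most genes. Small shifts remained: the median difference over all genes between PMA and control was 0.06, and 0.01 after cyclic loess. Arrays have no read depth, and their number limits the precision.

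Of 35556 probe sets, 21218 carry 1 gene symbol in the platform annotation, 1881 several and 12457 none. The brightest probe set with 1 symbol stood for each of 18820 genes. Group means were estimated jointly from the 19 arrays (limma 3.58.1, functions lmFit and eBayes, under R 4.3.3), with 13 contrasts, 95% intervals and Benjamini-Hochberg adjustment within each contrast. The fit was tested on simulated data, drawn independently for each gene and array and without array effects. That test says nothing of weak arrays such as PA replicate 2.

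All 10 genes are named. From the 13 other gene lists, those past an adjusted p of 0.05 in a contrast described are named, or, where none passed, up to 4 with the smallest p. The 6 genes most like the group are named by correlation. Members and lists were chosen with earlier results of these data known.

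Alternatives were a filter on the dimmest genes, every probe set, probe set averages, cyclic loess, a trended robust spread, array weights, the replicate block, the compared arrays alone, and arrays left out. They were run for the 9 measured genes. Same-numbered samples did not as a rule deviate together, and the main fit did not pair them. The labels do not say whether a number marks a shared passage or day.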

Additional observations from a re-analysis of the deposited data

Results flagged for a closer look

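Herpud1 in PMA replicate 1 stood apart from its group, at 10.50, against 10.42 to 10.42 in the other 3 PMA arrays. The gap was 0.956 of the group's range, above the critical value of 0.829 for 4 samples. It was the 1 such value among 36 tests of 9 genes in the groups of 4, and chance flags about 1 in 20. Without that array the difference of Herpud1 between PMA and control was 0.05 (adjusted p = 0.788), against 0.07 with it (adjusted p = 0.4625).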

How the results depend on the processing

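No result changed its direction while past the threshold. Of the single-gene values under the alternatives, 25 lost a call and 21 gained one. Another 7, past the threshold in neither setting, changed sign and moved by at least the SE of the main difference. The other 3340 kept their side of the threshold, and some of these changed sign with a move smaller than that SE. The counts of the 9 genes past the threshold depended on the setting as follows. With OA against control the count of 1 became 0 with only the compared arrays and 2 with array weights, and lay between 0 and 1 with single arrays left out. For the mean of the acids against control it became 1 with array weights. For saturated against monounsaturated acids the count of 1 became 2 without the dimmest genes, 0 with every probe set, 3 with cyclic loess, 2 with a trended robust spread, 0 without PA replicates 2 and 4, 0 without PMA replicates 1 and 4, and 0 to 2 with single arrays left out. For PA against PMA it became 1 without the dimmest genes, with cyclic loess and with a trended robust spread, and 0 to 1 with single arrays left out. For PA against OA the count of 2 became 1 with every probe set, 0 with only the compared arrays, 1 with array weights, 3 with cyclic loess (Herpud1 added, 0.16, adjusted p = 0.044), 0 without PA replicates 2 and 4, and 1 to 2 with single arrays left out. For SA against PMA it became 1 with a trended robust spread and 1 with array weights. The cause was not tested. Samples with the same replicate number correlated at -0.433 to 0.396 over 36 pairs, 6 of them above 0.1. Of 19 arrays 4 correlated best with their own number. The main fit did not pair the samples, and these correlations cannot settle whether a number marks a shared passage or day. The replicate block moved the count for saturated against monounsaturated acids to 0 (Sec61b, adjusted p = 0.0636) and changed no other count.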

Other observations

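Chaperones outside the ER were read from a list of 17 cytosolic and mitochondrial genes, of which 13 were measured. In limma's fit 0 of 13 passed with any acid against control. Between PA and OA 2 rose and 0 fell, with a median of -0.01, beside 0.02 over all genes, of which 1.92% passed in that comparison. Hspb1, a small heat shock protein, averaged 6.35 ± 0.10 in PA cultures (SD, n = 4) and 6.00 ± 0.01 in OA cultures (SD, n = 3), a difference of 0.35 ± 0.06 (adjusted p = 0.00827). Dnajb1, the main J-domain partner of cytosolic Hsp70, averaged 7.81 ± 0.05 in PA cultures (SD, n = 4) and 7.53 ± 0.15 in OA cultures (SD, n = 3), a difference of 0.28 ± 0.06 (adjusted p = 0.0233).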
